A study of Mus musculus with 8 samples.

Results

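The potassium channel genes of the mouse were described across 4 organs and across frozen and fixed tissue. They were taken as the rows of the deposited expression table whose symbol begins with Kcn, followed by lower-case letters and a closing number. That rule gave 92 of 27179 genes, of which 25904 carry a symbol. By the standard nomenclature they fall into 30 pore-forming subunits of voltage-gated (Kv) channels, 10 silent Kv modifiers, 11 auxiliary Kv subunits, 15 inward rectifiers, 14 tandem-pore channels and 12 subunits of calcium- or sodium-activated channels. Total RNA had been sequenced from brain, heart, kidney and liver, each once as flash-frozen and once as formalin-fixed, paraffin-embedded (FFPE) tissue. There were therefore 8 groups of 1 library each. The labels give no strain, age, sex or genotype, name no further treatment, and leave unsaid whether a sample came from 1 animal or a pool.

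Potassium channels let potassium ions leave or enter the cell along their gradient and set the resting potential. Kv channels open on depolarisation and end the action potential in neurons and heart muscle, whereas silent modifiers form no working channel by themselves and change the Kv channels they join. Inward rectifiers pass current near the resting potential and carry potassium across kidney tubule walls, tandem-pore channels give a steady leak, and calcium-activated channels tie the membrane potential to calcium signals.

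The recovered library totals ran from 10180972 reads in FFPE brain to 20526813 in frozen heart. Levels are given as counts per 1000000 reads (CPM) on the authors' effective library sizes. Genes without reads were set against a floor of 3 reads, worth from 0.119 CPM (frozen brain) to 0.292 CPM (frozen heart). The labelled organs carried their markers: the 5 neuron markers summed to 1211 and 1548 CPM in frozen and FFPE brain, the 6 cardiomyocyte markers to 56489 and 65666 in heart, the 5 proximal tubule markers to 9958 and 6528 in kidney, and the 5 hepatocyte markers to 49828 and 42001 in liver. The frozen and FFPE pieces of an organ differed in some regional markers. Cerebellar neuron markers summed to 155 CPM in frozen and 360.2 in FFPE brain, with Gabra6 and Pcp2 at 0 reads in frozen brain and at 742 and 98 in FFPE brain. Atrial myocyte markers summed to 18.0 CPM in frozen and 907 in FFPE heart, with Myl7, Sln and Bmp10 at 0 reads in frozen heart. In these bulk samples, fewer cells of a type and less RNA per cell cannot be told apart.

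Brain held the most potassium channel RNA, kidney came next, and liver held little. The 92 genes summed to 1785 and 2440.4 CPM in frozen and FFPE brain, 1049 and 1079 in kidney, 506 and 729 in heart, and 84.6 and 102 in liver. Each organ drew on other classes. Kv pore-forming subunits made up 55.7% and 58.9% of the sum in frozen and FFPE brain. Inward rectifiers made up 82.9% and 82.3% in kidney. In heart they made up 34.9% and 30.7%, beside 26.3% and 31.8% for Kv pore-forming subunits, so that inward rectifiers led the frozen and Kv subunits the FFPE library. Tandem-pore channels led in liver with 39.4% and 37.3%, ahead of calcium- and sodium-activated channels with 29.3% and 30.8%. The largest gap in a class share between the frozen and FFPE libraries of an organ was 5.48 percentage points, for Kv pore-forming subunits in heart.

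**Figure D1:**
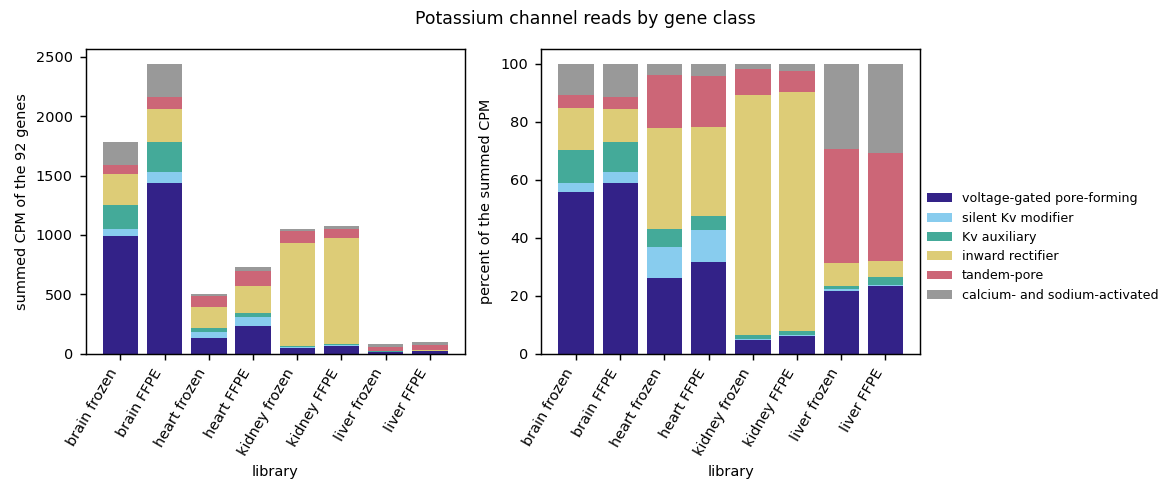
Summed CPM of the 92 potassium channel genes by class (left) and the percent of that sum held by each class (right), for 8 libraries of 1 sample each. Kv pore-forming subunits fill 55.7% and 58.9% of the brain bars, and inward rectifiers 82.3% to 82.9% of both kidney bars.

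The organ with the highest level was the same in frozen and FFPE tissue for 81 of the 92 genes: brain for 57, heart for 16, kidney for 6 and liver for 2. It differed for 6 genes (Kcnh2, Kcnj13, Kcnk7, Kcnmb1, Kcnn4 and Kcns3). A further 2, Kcne2 and Kcnk15, had no read in any frozen library, and Kcnk16, Kcnk18 and Kcnmb3 had none in any library. By class, brain was highest in both preparations for 25 of 30 Kv pore-forming subunits, 7 of 10 silent modifiers and 7 of 12 calcium- and sodium-activated subunits, but for 5 of 15 inward rectifiers, of which 6 were highest in heart and 3 in kidney.

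**Figure D2:**
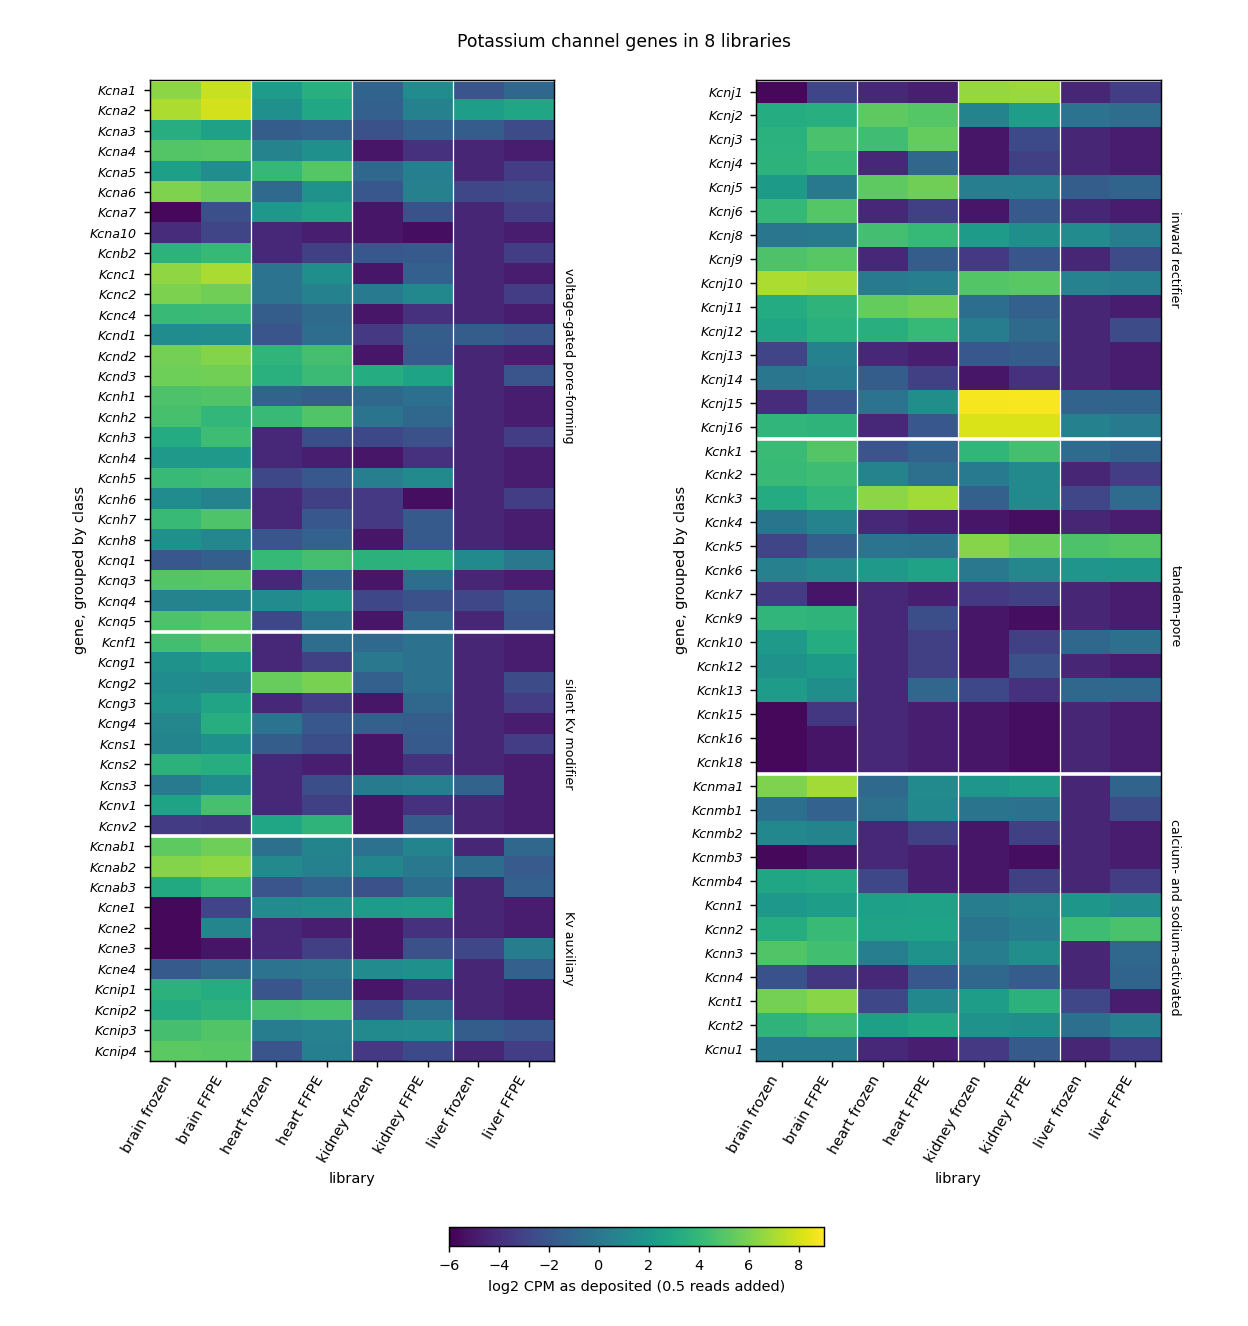
Deposited log2 CPM of 89 of the 92 genes (rows, by class) in 8 libraries (columns). Most Kv rows are brightest in the brain columns, and Kcnj1, Kcnj15 and Kcnj16 are brightest in the kidney columns.

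Each organ was then set against the mean log2 level of the other 3 with limma, over 15819 genes above 1 CPM in at least 2 libraries, with a Benjamini-Hochberg adjusted p under 0.05 as the call. Of the 92 genes, 79 entered. Of these, 34 passed the filter in 1 organ only, 30 of them in brain, and so had to differ between organs; the counts that follow describe the genes tested and carry no further weight. Since the labels name no separate animals, the p-values measure only the spread between these samples. In brain, 66 were higher, where 34.7% of all genes tested were, and 7 were lower, against 31.6% of all genes. In heart, 24 were higher and 25 lower, against 21.5% and 28.7% of all genes. In kidney, 12 were higher and 36 lower, against 20.3% and 19.9%. In liver, 2 were higher and 68 lower, against 27.3% and 35.2%. The median log2 difference of the tested members was 5.02 in brain and -3.46 in liver, beside 0.05 and -0.13 over all genes tested. Without the frozen heart library the heart calls fell from 49 to 30 (from 50.2% to 36.5% of all genes), and without the frozen kidney library the kidney calls fell from 48 to 28 (from 40.3% to 19.1% of all genes). Because brain is among the organs averaged, a gene could be called higher in heart while brain was higher still, as for Kcna1 (log2 difference 1.00 ± 0.33 SE, limma adjusted p = 0.0322).

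Heart, kidney and liver were therefore also compared without brain, each against the mean log2 level of the others. Against kidney and liver, heart was higher for 35 members and lower for 7, where 24.3% and 26.4% of all genes were. Kidney was higher than heart and liver for 22 and lower for 17, against 20.6% and 16.3% of all genes. After quantile normalization that kidney split became 19 higher and 26 lower (19.5% and 19.8% of all genes), and without the frozen kidney library 19 members were called in all (20.1% of all genes, against 36.9% with it). Liver was higher than heart and kidney for 4 and lower for 46, against 24.4% and 28.8% of all genes. Counting without a test, both libraries of an organ lay above the other 6 for 53 members in brain (27.4% of all genes), 14 in heart (12.6%), 6 in kidney (9.64%) and 1 in liver (18.1%). That was fixed beforehand for the members that passed the filter in 1 organ only, 30 in brain, 2 in heart and 2 in kidney.

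Among Kv pore-forming subunits, limma called 27 of 29 tested higher in brain, where 34.7% of all genes were, and the other 2, Kcna7 and Kcnq1, lower. Of the 29, 12 had passed the filter through brain alone and so had to differ; of the other 17, 15 were called higher. Kcnq3, a subunit of the M-current that limits repetitive firing, stood at 32.0 CPM in frozen and 34.1 in FFPE brain, 0 and 0.455 in heart, 0 and 0.634 in kidney and 0 in both liver libraries. Kcnq3 passed the filter through brain alone, so both brain libraries had to lie above the other 6. The log2 difference was 8.43 ± 0.98 SE (limma adjusted p = 9.08e-05), and its sign was fixed beforehand. Where libraries hold no read, such fitted differences depend on the 0.5 reads added and are no bounds. Against the floor of 3 reads in frozen heart, Kcnq3 was at least 109-fold higher in frozen brain.

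Kcnc1, a fast Kv channel of rapidly firing neurons, stood at 92.8 and 136 CPM in frozen and FFPE brain, 0.780 and 2.73 in heart, 0 and 0.363 in kidney and 0 in both liver libraries. Its brain difference was 9.23 ± 0.75 log2 units (limma adjusted p = 1.27e-05). The related Kcnc4 stood at 18.2 and 18.9 CPM in brain and at most 0.531 elsewhere (7.64 ± 0.59). Kcna4, a rapidly inactivating channel, stood at 31.2 and 34.2 CPM in brain and at most 2.81 elsewhere (7.70 ± 0.54), and Kcnh7, of the ether-a-go-go-related group, at 17.0 and 29.3 CPM and at most 0.272 elsewhere (7.94 ± 0.68). Kcnq5, a further M-current subunit, stood at 27.6 and 34.1 CPM in brain and at most 0.834 elsewhere (7.54 ± 0.71). In each of these genes the brain libraries did not overlap with the rest. For Kcnc4, Kcnh7 and Kcnq5 that was fixed beforehand, since they passed the filter through brain alone.

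The axonal channels Kcna1 and Kcna2 were among the most abundant Kv genes of brain and were also found elsewhere. Kcna2 stood at 139.7 and 255 CPM in frozen and FFPE brain, 2.83 and 7.81 in heart, 0.351 and 1.4955 in kidney and 4.99 and 6.89 in liver. Its liver level exceeded its kidney level in both preparations. Against the mean of heart and kidney, liver was higher by 1.64 ± 0.32 log2 units (limma adjusted p = 0.00256). Liver and heart overlapped across preparations, with FFPE heart (7.81 CPM) above FFPE liver (6.89). Kcna1 stood at 83.4 and 211 CPM in brain, 4.68 and 11.1 in heart, 0.410 and 2.40 in kidney and 0.192 and 0.482 in liver.

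Some genes of the Kv group differed between the frozen and FFPE pieces of brain along with the cerebellar markers. The silent modifiers Kcnv1 (6.38 and 25.2 CPM) and Kcng4 (1.90 and 10.3 CPM) were lower in frozen than in FFPE brain. The part of the cerebellar share in these values was not tested.

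Heart had its own set of Kv genes. Kcna5, which carries an early repolarising current in atrial muscle, stood at 15.9 and 32.7 CPM in frozen and FFPE heart, 5.55 and 2.57 in brain, 0.468 and 1.36 in kidney and 0 and 0.0689 in liver (heart difference 5.24 ± 0.55 log2 units, limma adjusted p = 9.58e-05). Kcna7 was at 3.90 and 6.14 CPM in heart and at most 0.181 elsewhere, a difference of 6.15 ± 0.73. It passed the filter through heart alone, so the sign of that difference was fixed beforehand. In frozen tissue, where the other 3 organs had no read, its heart level was at least 13.5-fold above the highest of their 3-read floors, that of liver. Kcnq1, which with Kcne1 forms the slow delayed rectifier, was shared with kidney: 16.6 and 23.7 CPM in heart, 12.3 and 12.8 in kidney, 2.21 and 0.965 in liver and 0.238 and 0.335 in brain. Its kidney difference was 2.59 ± 0.39 log2 units (limma adjusted p = 0.000993), and it was lower in brain, with a difference of -4.56 ± 0.39.

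Of the genes whose highest organ changed with the preparation, Kcnh2 and Kcns3 reached 1 CPM in both highest libraries. Kcnh2, the rapid delayed rectifier of heart, stood at 25.3 CPM in frozen and 15.5 in FFPE brain, and at 17.0 and 29.8 CPM in frozen and FFPE heart, so that brain and heart overlapped, whereas kidney (0.819 and 0.498) and liver (0 in both) lay below. Against kidney and liver, heart was higher by 7.10 ± 0.45 log2 units (limma adjusted p = 4.78e-06). The transient outward channel Kcnd2 stood at 58.5 and 73.8 CPM in brain, 14.1 and 24.0 in heart, 0 and 0.272 in kidney and 0 in both liver libraries, with heart above kidney and liver by 8.23 ± 0.72. Its brain difference was 7.32 ± 0.68. Kcnh5, of the ether-a-go-go group, stood at 18.1 and 20.6 CPM in brain and 1.29 and 2.13 in kidney, with kidney above heart and liver by 4.23 ± 0.53.

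Among silent modifiers, limma called 8 of 10 higher in brain, where 34.7% of all genes were. Of these, 6 had passed the filter through brain alone. In heart, 2 of 10 were higher and 6 lower, against 21.5% and 28.7% of all genes, so the higher calls lay near that share. Kcng2 stood at 45.9 and 64.1 CPM in frozen and FFPE heart, 2.46 and 2.07 in brain, 0.351 and 0.770 in kidney and 0 and 0.138 in liver, a heart difference of 6.81 ± 0.47 log2 units (limma adjusted p = 1.04e-05). Kcnv2 stood at 6.92 and 13.7 CPM in heart and at most 0.317 elsewhere (7.09 ± 0.85). Kcng2 and Kcnv2 were the only silent modifiers with both heart libraries above the other 6. For Kcnv2 that was fixed beforehand, since it passed the filter through heart alone. Kcns2 (12.5 and 10.3 CPM), Kcnf1 (21.9 and 32.1) and Kcnv1 were brain genes, with differences of 8.06 ± 0.65, 7.31 ± 0.79 and 7.95 ± 0.68. Each of them passed the filter through brain alone, so the signs were fixed beforehand. Kcng1 stood at 3.21 and 4.75 CPM in brain and 0.995 and 0.770 in kidney, against 0 and 0.0758 in heart and 0 in both liver libraries. Kidney lay above heart and liver by 4.03 ± 0.64, a call lost on the scale log2(CPM + 5) (adjusted p = 0.0554). Kcns3 was low and divided, at 1.15 and 2.40 CPM in brain and 1.17 and 1.31 in kidney, so that the 2 organs overlapped across preparations.

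Auxiliary subunits followed several organs. Kcnip4, a calcium-binding partner of the transient outward channels, stood at 37.1 and 34.2 CPM in brain and at most 1.36 elsewhere (7.72 ± 0.60 log2 units). Its relative Kcnip2, needed for the transient outward current of heart, stood at 23.7 and 25.9 CPM in frozen and FFPE heart, 9.28 and 12.3 in brain, 0.117 and 0.634 in kidney and 0 in both liver libraries. Heart lay above the other organs by 5.59 ± 0.55 (limma adjusted p = 6.50e-05). Kcne1 stood at 4.74 and 5.08 CPM in kidney, 2.34 and 2.81 in heart, 0 and 0.112 in brain and 0 in both liver libraries, a kidney difference of 4.80 ± 0.72 (limma adjusted p = 0.000996). Kcne4, an inhibitory subunit, was at 2.34 and 2.85 CPM in kidney and 0.910 or below elsewhere (2.85 ± 0.65). It passed the filter through kidney alone, so the sign of that difference was fixed beforehand. Without the frozen kidney library the Kcne4 difference was 2.32 and was no longer called.

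**Figure D3:**
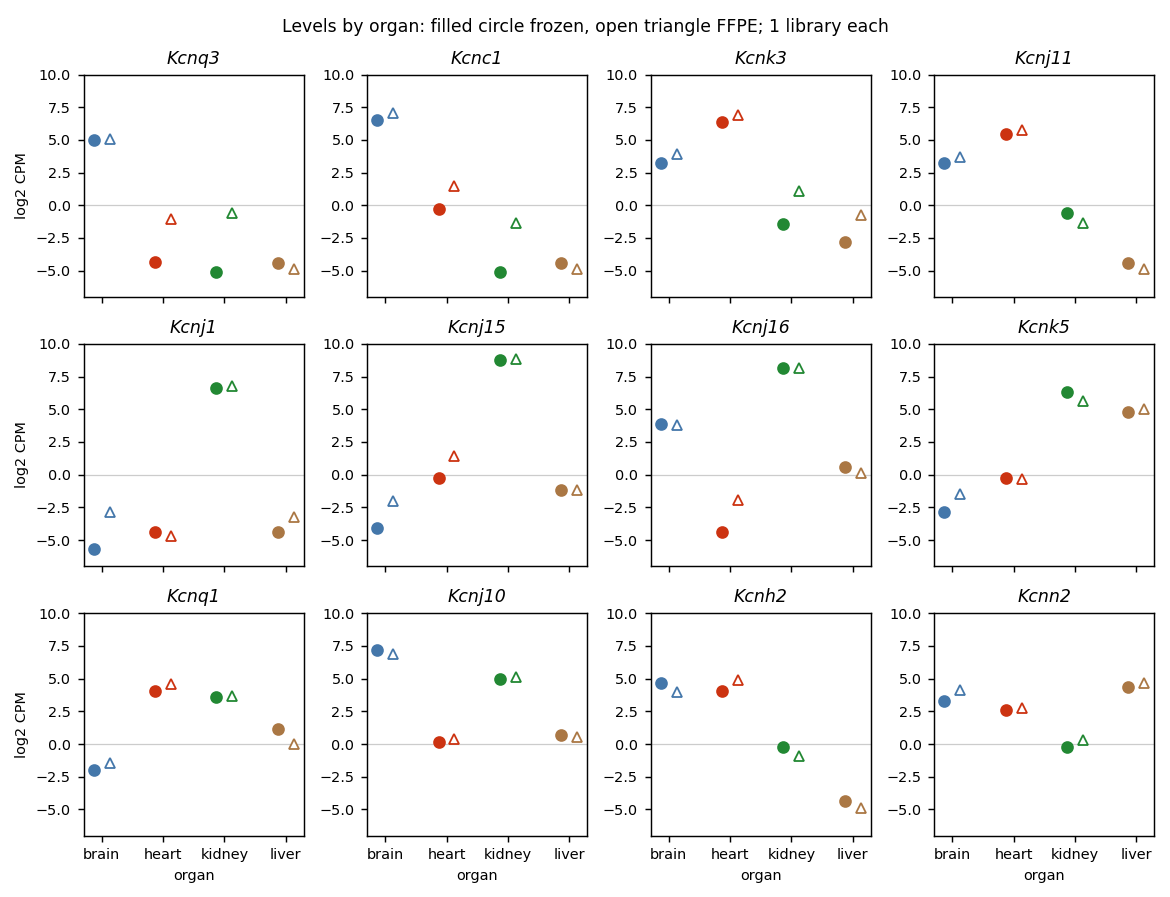
Deposited log2 CPM of 12 potassium channel genes by organ (filled circle frozen, open triangle FFPE, 1 library each). Kcnj1 and Kcnj15 are high in both kidney libraries and low in the other 6, while Kcnh2 lies at like levels in brain and heart.

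The inward rectifiers held the largest contrasts of kidney. Kcnj15 stood at 444 and 453 CPM in frozen and FFPE kidney, 0.0397 and 0.223 in brain, 0.780 and 2.65 in heart and 0.384 and 0.413 in liver. Kcnj16, which joins other inward rectifiers and makes them sensitive to pH, stood at 285 and 280.3 CPM in kidney, 14.5 and 13.5 in brain, 0 and 0.227 in heart and 1.44 and 1.03 in liver. Kcnj1, the secretory channel of the thick ascending limb and collecting duct, stood at 98.7 and 108 CPM in kidney, 0 and 0.112 in brain, 0 in both heart libraries and 0 and 0.0689 in liver. For each of the 3 genes both kidney libraries lay above all others and differed by at most 0.13 log2 units between preparations. The kidney differences were 10.02 ± 0.48 log2 units for Kcnj15 (limma adjusted p = 6.30e-06), 7.81 ± 0.52 for Kcnj16 (1.77e-05) and 10.90 ± 0.71 for Kcnj1 (1.69e-05). Kcnj1 passed the filter through kidney alone, so its place above the other libraries was fixed beforehand. In frozen tissue, where the other 3 organs had no read, Kcnj1 was in kidney at least 337-fold higher than the highest of their 3-read floors, that of heart. Together Kcnj15 and Kcnj16 gave 69.5% and 68.0% of all potassium channel CPM in frozen and FFPE kidney.

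Kcnj10, the channel by which astrocytes take up potassium and a partner of Kcnj16 in the distal tubule, was high in both brain and kidney. It stood at 144 and 119 CPM in frozen and FFPE brain, 32.1 and 35.8 in kidney, 1.07 and 1.29 in heart and 1.54 and 1.38 in liver. Brain lay above the other organs by 5.05 ± 0.19 log2 units, and kidney above heart and liver by 4.65 ± 0.20 (limma adjusted p = 4.62e-06).

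Heart expressed 6 inward rectifiers most highly in both preparations. Kcnj11, the pore of the ATP-sensitive channel of heart muscle, stood at 43.6 and 55.5 CPM in frozen and FFPE heart, 9.40 and 13.2 in brain, 0.644 and 0.363 in kidney and 0 in both liver libraries (6.33 ± 0.41 log2 units, limma adjusted p = 6.97e-06). Kcnj2, the classical background rectifier of heart muscle, stood at 38.1 and 32.5 CPM in heart, 9.68 and 11.1 in brain, 1.70 and 5.08 in kidney and 0.768 and 0.620 in liver (3.64 ± 0.37). Kcnj5, a subunit of the acetylcholine-gated channel, stood at 38.8 and 53.5 CPM in heart, 4.56 and 1.01 in brain, 1.29 and 1.36 in kidney and 0.288 and 0.413 in liver (5.45 ± 0.52). Heart libraries did not overlap with the others for these 3 genes.

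Kcnj3, the partner of Kcnj5 in the acetylcholine-gated channel, stood at 21.1 and 43.98 CPM in frozen and FFPE heart, 11.8 and 25.7 in brain, 0 and 0.136 in kidney and 0 in both liver libraries. FFPE brain lay above frozen heart, so that the 2 organs overlapped across preparations, and heart was above kidney and liver by 9.18 ± 0.61 log2 units (limma adjusted p = 6.32e-06). Kcnj3 and Kcna5, both known from atrial muscle, were higher in the FFPE heart library, which also held the atrial markers. FFPE minus frozen was 1.06 log2 units in heart and 1.13 in brain for Kcnj3. For Kcna5 it was 1.04 in heart, 1.47 in kidney and -1.10 in brain. For Kcnj5 it was 0.46 in heart and -2.15 in brain. Of 25 members with at least 20 reads in both heart libraries, 23 were higher in FFPE heart, with a median of 0.55. The part of the atrial markers in the values was not tested. A long noncoding gene on the other strand covers 31.1% of the Kcnj3 exon length, and the sources used here do not state whether counting used strand. Kcnj8, the ATP-sensitive pore of vascular muscle and pericytes, stood at 22.7 and 16.4 CPM in heart, 4.74 and 2.76 in kidney, 2.30 and 1.24 in liver and 0.912 and 1.01 in brain. The 4 pericyte markers ran from 276 to 315 CPM in the heart libraries, from 52.2 to 57.7 in brain, 85.1 to 95.8 in kidney and at 28.8 in both liver libraries, and their part in the Kcnj8 levels was not tested.

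Brain inward rectifiers were Kcnj4, Kcnj6 and Kcnj9, the last 2 of which form G protein-gated channels of neurons. Kcnj6 stood at 15.9 and 32.8 CPM in frozen and FFPE brain and at most 0.272 elsewhere (8.45 ± 0.77 log2 units). Kcnj9 stood at 27.6 and 33.7 CPM and at most 0.303 elsewhere (7.99 ± 0.61), and Kcnj4 at 12.9 and 17.5 CPM and at most 0.455 elsewhere (7.72 ± 0.80). Each of these genes passed the filter through brain alone, so the signs were fixed beforehand. The 13 tested members of the class were all called lower in liver, where 35.2% of all genes were.

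Of 3 pairs of inward rectifier genes that lie side by side within 200 kb, 2 had different highest organs. Kcnj9 and Kcnj10 on chromosome 1, 11.89 kb apart and the closest pair, were both highest in brain. On chromosome 11 Kcnj16 (chr11:110968033-111027968, + strand, mm10) was highest in kidney and Kcnj2 (chr11:111066164-111076825, + strand), 38.2 kb away, in heart. On chromosome 9 Kcnj5 (chr9:32314706-32344380, - strand) was highest in heart and Kcnj1 (chr9:32372418-32399197, + strand), 28.04 kb away, in kidney. The promoter windows of these 4 genes are shown because both of these pairs split between the same 2 organs. They run from 250 bases before to 50 bases after the start for which RefSeq sequence was given (GRCm38.p6, the assembly also called mm10), 5′ to 3′ on the gene's strand, with CG dinucleotides in capitals. For Kcnj1 that start lies 21.57 kb inside the gene, downstream of its outermost start, whose window was not analysed here. The windows are chr11:110967783-110968082 (+) for Kcnj16, chr11:111065914-111066213 (+) for Kcnj2, chr9:32393735-32394034 (+) for Kcnj1 and chr9:32344295-32344594 (-) for Kcnj5.
Kcnj16: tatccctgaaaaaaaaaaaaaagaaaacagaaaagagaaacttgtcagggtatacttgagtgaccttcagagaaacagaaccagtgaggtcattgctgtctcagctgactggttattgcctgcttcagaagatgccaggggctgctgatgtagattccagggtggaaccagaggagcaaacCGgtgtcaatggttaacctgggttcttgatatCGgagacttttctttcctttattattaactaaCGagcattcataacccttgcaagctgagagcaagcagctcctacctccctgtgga
Kcnj2: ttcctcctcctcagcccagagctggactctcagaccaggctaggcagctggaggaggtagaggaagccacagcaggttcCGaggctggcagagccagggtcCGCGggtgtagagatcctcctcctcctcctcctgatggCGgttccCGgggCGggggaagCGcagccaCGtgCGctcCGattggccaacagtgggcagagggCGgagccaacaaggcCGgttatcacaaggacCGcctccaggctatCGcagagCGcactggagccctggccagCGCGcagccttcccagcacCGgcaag
Kcnj1: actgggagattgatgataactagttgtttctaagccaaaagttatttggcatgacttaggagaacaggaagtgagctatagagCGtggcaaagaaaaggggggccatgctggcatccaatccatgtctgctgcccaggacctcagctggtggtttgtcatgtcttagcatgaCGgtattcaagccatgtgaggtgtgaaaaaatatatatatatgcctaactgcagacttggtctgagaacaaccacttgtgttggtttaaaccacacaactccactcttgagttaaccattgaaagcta
Kcnj5: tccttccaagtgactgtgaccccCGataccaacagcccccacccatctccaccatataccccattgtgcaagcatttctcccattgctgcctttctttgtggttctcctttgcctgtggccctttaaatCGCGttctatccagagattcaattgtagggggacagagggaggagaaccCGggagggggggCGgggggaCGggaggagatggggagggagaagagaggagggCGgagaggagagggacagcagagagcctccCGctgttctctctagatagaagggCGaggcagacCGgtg
The window held 3 CG in Kcnj16 and 2 in Kcnj1, against 18 in Kcnj2 and 10 in Kcnj5. For Kcnj1 the count is that of its inner start only. Such a count describes the letters and not a regulatory site.

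A promoter window was listed for 67 of the 92 genes. They held a median of 10 CG, beside 7 in the windows of all 27025 genes listed, and 50.7% of them against 43.97% of all windows held at least 10. The median was 17 for the 41 genes highest in brain in both preparations, 10 for 9 genes of heart and 3 for 5 genes of kidney. Kidney included Kcnk5 with 26, so the kidney genes did not all have few. The start lay more than 1000 bases inside the gene in 13 of the 67 windows (19.4%, beside 7.2% of all windows). Without those windows the median was 18.5 over 34 brain genes, 9.5 over 6 heart genes and 6 over 4 kidney genes. The sequence TATAAA, searched on both strands, was found in 3 of the 67 windows (4.48%) and in 14.2% of all windows.

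**Figure D4:**
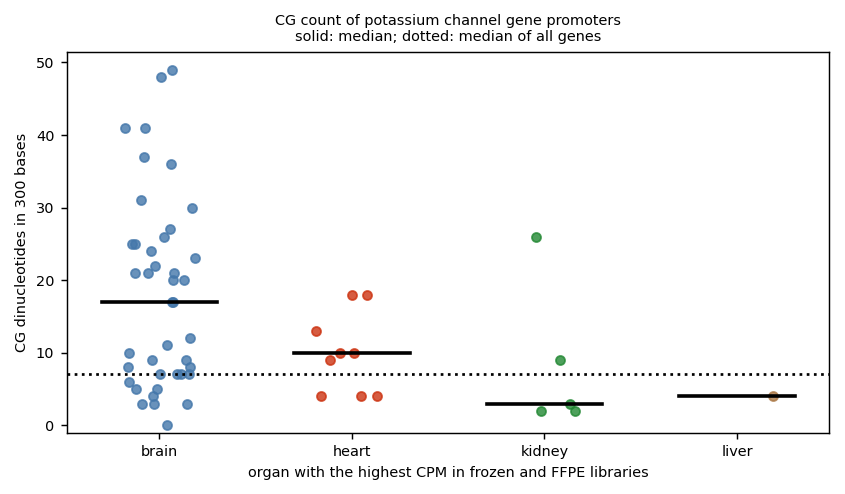
CG dinucleotides in the 300-base promoter windows of 56 potassium channel genes by the organ with the highest CPM in both preparations, 1 point per gene. The median is 17 for brain genes and 3 for kidney genes, beside 7 for all genes (dotted).

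Tandem-pore channels were led by Kcnk1 in brain, Kcnk3 in heart, and Kcnk5 in both kidney and liver. Kcnk3, an acid-sensitive leak channel, stood at 84.3 and 119.6 CPM in frozen and FFPE heart, 9.44 and 14.8 in brain, 0.351 and 2.13 in kidney and 0.0960 and 0.551 in liver (6.10 ± 0.42 log2 units, limma adjusted p = 1.01e-05). It was the most abundant potassium channel gene of heart by CPM. Kcnk5, an alkaline-activated leak channel of proximal tubule, stood at 78.9 and 49.2 CPM in kidney, 28.1 and 31.9 in liver, 0.780 and 0.758 in heart and 0.119 and 0.335 in brain. It was thus a gene of both kidney (5.14 ± 0.39) and liver (3.74 ± 0.39, limma adjusted p = 5.53e-05), with every kidney library above both of liver. Kcnk1 stood at 18.5 and 32.3 CPM in brain, 14.5 and 23.4 in kidney, 0.195 and 0.379 in heart and 0.576 and 0.413 in liver, so that brain and kidney overlapped (kidney 3.52 ± 0.36).

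Kcnk9, a leak channel of cerebellar granule and other neurons, stood at 14.9 and 13.6 CPM in frozen and FFPE brain and at most 0.152 elsewhere (8.26 ± 0.70 log2 units). It passed the filter through brain alone, so the sign of that difference was fixed beforehand. The part of the cerebellar share in its level was not tested. Kcnk10 stood at 4.40 and 9.88 CPM in brain and 0.480 and 0.689 in liver, against 0.0906 or less in heart and kidney. The liver call against heart and kidney, 3.24 ± 0.60 (limma adjusted p = 0.00202), rests on 5 and 10 reads and was lost on the scale log2(CPM + 5) (0.15, adjusted p = 0.423).

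Among calcium- and sodium-activated channels, limma called 8 of 9 tested higher in brain, where 34.7% of all genes were. Of these 8, 3 had passed the filter through brain alone. Kcnma1, the large-conductance calcium-activated pore, stood at 69.0 and 122 CPM in frozen and FFPE brain, 0.487 and 2.20 in heart, 3.69 and 4.71 in kidney and 0 and 0.413 in liver. The sodium-activated Kcnt1 stood at 57.8 and 79.1 CPM in brain and 5.15 and 12.5 in kidney, against at most 1.97 in heart and 0.0960 in liver, and kidney lay above heart and liver by 5.37 ± 0.95 log2 units (limma adjusted p = 0.00245). Kcnn2, a small-conductance channel, was the one member with both liver libraries above the other 6. It stood at 20.3 and 25.9 CPM in frozen and FFPE liver, 9.64 and 17.1 in brain, 6.14 and 6.60 in heart and 0.819 and 1.22 in kidney, and liver exceeded the others by 2.38 ± 0.23 log2 units (limma adjusted p = 3.44e-05). Kcnk5 and Kcnn2 together made up 57.2% and 56.9% of the potassium channel CPM of frozen and FFPE liver.

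Levels per kilobase of exon can be compared between genes. The 2 highest were in kidney, Kcnj16 at 72.5 and 71.2 reads per kilobase per 1000000 reads (RPKM) in frozen and FFPE tissue and Kcnj15 at 70.4 and 71.8, and they changed places between preparations. Next in kidney came Kcnj1 at 29.6 and 32.4 RPKM and Kcnk5 at 23.2 and 14.5, which some of the brain and heart values that follow exceeded. In brain, Kcnj10 led the frozen library with 26.7 RPKM (22.0 in FFPE) and Kcna1 the FFPE library with 44.2 (17.4 in frozen). Heart was led by Kcnk3 at 21.2 and 30.1 RPKM, followed by Kcng2 at 15.4 and 21.4 and Kcnj11 at 11.8 and 15.1. In liver Kcnk5 reached 8.26 and 9.37 RPKM and Kcnn2 2.71 and 3.47.

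Genes outside the rule whose products work with these channels were mostly higher in brain. Of 17 listed partners, 13 were tested. In brain, 12 were higher and 1, Abcc9, was lower, against 34.7% and 31.6% of all genes. Dpp6, Dpp10, Cntnap2, Hcn3 and Lrrc55 passed the filter through brain alone and so had to differ between organs. Abcc9, the sulfonylurea receptor that completes cardiac and vascular ATP-sensitive channels, stood at 302 and 264 CPM in frozen and FFPE heart and at most 35.1 elsewhere, a heart difference of 4.20 ± 0.19 log2 units (limma adjusted p = 1.52e-06). Abcc8 stood at 15.6 and 35.6 CPM in heart and 8.64 and 17.9 in brain. The Kv auxiliary Dpp6 was higher in brain by 10.27 ± 0.71. Heart was higher than kidney and liver for 11 of the 13, against 24.3% of all genes. Liver was lower than the other organs for 12 and kidney for 10, against 35.2% and 19.9% of all genes. Between FFPE and frozen tissue limma called none of the 13, against 3.38% of all genes. At an unadjusted p under 0.05 limma gave 1, beside 11.4% of all genes higher and 10.1% lower. With voom on recovered reads 2 were called, against 8.89% of all genes.

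Kcna1 and Kcna2 were the genes called between the preparations, both higher in FFPE tissue. With limma, 2 of 79 members were higher in FFPE, where 1.2% of all genes were, and none was lower, where 2.18% were. Kcna1 differed by 1.54 ± 0.28 log2 units (adjusted p = 0.0312) and Kcna2 by 1.19 ± 0.26 (adjusted p = 0.0472, both limma), and both were higher in FFPE in 4 of 4 organs. At an unadjusted p under 0.05 limma gave 17 members higher and 0 lower, beside 11.4% and 10.1% of all genes. With voom on recovered reads, which called more genes in general (3.62% of all genes higher and 5.28% lower), 12 members were higher, Kcna1 and Kcna2 among them, and none was lower. Both calls were lost when any 1 of the 8 libraries was left out.

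The differences of single organs are descriptions, since each rests on 1 library against 1. Among members with at least 20 reads in both libraries of an organ, the FFPE value was the higher for 52 of 69 brain genes, 23 of 25 heart genes, 20 of 26 kidney genes and 6 of 7 liver genes. Their medians were 0.34, 0.55, 0.16 and 0.28 log2 units. Over all genes with as many reads, FFPE was higher for 46.2%, 50.4%, 49.2% and 45.8%. Over all 79 members tested, low counts included, the medians were 0.34 in brain, 0.82 in heart, 0.91 in kidney and -0.32 in liver, so that liver differed in sign between the 2 sets. There, members without reads in either library differ by scaling alone, at -0.48. Members seen only in the FFPE library of an organ numbered 5 of 92 in brain, 21 in heart, 26 in kidney and 25 in liver, or 5.43%, 22.8%, 28.3% and 27.2%. The same shares of all genes were 10.9%, 9.65%, 13.1% and 6.59%, so that the members lay below all genes in brain and above them in the other organs. The 5 neuron markers summed to 10.3 CPM in frozen and 14.8 in FFPE heart, 6.09 and 13.6 in kidney and 6.53 and 8.68 in liver, and Gabra6 had 16 reads in FFPE heart. Their part in these differences was not tested.

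**Figure D5:**
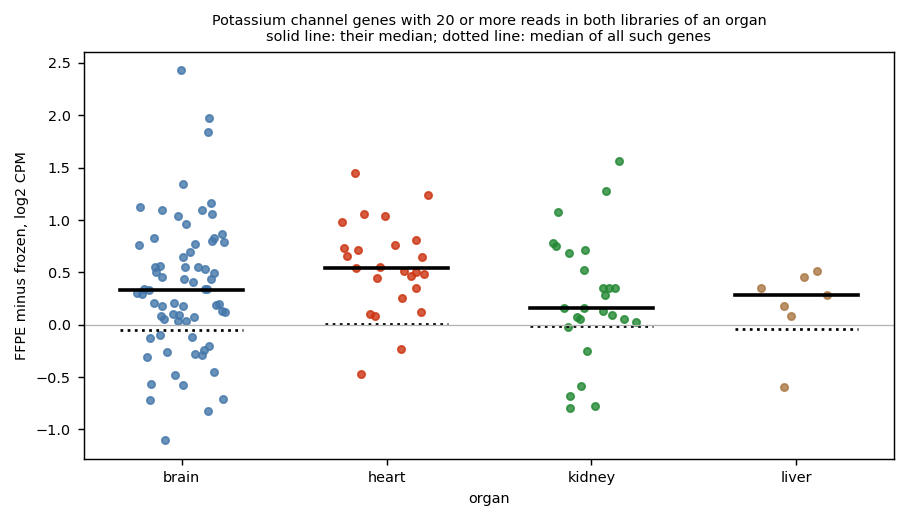
FFPE minus frozen log2 CPM of potassium channel genes with at least 20 reads in both libraries, by organ, 1 point per gene. The medians (solid) lie at 0.34, 0.55, 0.16 and 0.28, above those of all such genes (dotted).

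The 13 genes that did not enter the test had few reads. Kcnk16, Kcnk18 and Kcnmb3 had none, Kcnk15 had 1 read in FFPE brain, and Kcna10 had 1 in frozen and 2 in FFPE brain. Kcnj14 and Kcnk4 were brain genes at 0.912 and 1.06 CPM and at 0.872 and 1.62. Kcne2, a small auxiliary subunit, had 0 reads in frozen and 31 in FFPE brain, and Kcnj13, an inward rectifier of choroid plexus and retinal epithelium, 3 and 26. For 7 choroid plexus markers, listed after these values were seen, all of them detected in both brain libraries, the sum was 99.8 CPM in frozen and 165 in FFPE brain. Enpp2 alone gave 86.6 and 145 CPM of it. The other 6 summed to 13.1 and 19.9 CPM, with 5 of them higher in FFPE brain, Slc4a5 at 2 and 38 reads among them, and Clic6 lower at 230 and 89. The list left out Ttr, counted here among the hepatocyte markers, which had 40 reads in frozen and 1126 in FFPE brain (1.59 and 62.9 CPM). The part of choroid plexus in these values was not tested. Exons of Gigyf2 cover 49.1% of the Kcnj13 exon length, so its reads cannot be assigned to it with certainty. Kcne3 had 1 and 18 reads in frozen and FFPE liver. Kcnk7, Kcnmb1 and Kcnn4 had at most 26 reads in any library. Overlaps also touch Kcna6 (39.6% of its exon length, an antisense gene) and Kcnmb4 (20.9%).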

How the data were processed

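Total RNA from 8 mouse libraries was analysed, 1 per organ and preservation, extracted with Trizol (after deparaffinisation for FFPE) and sheared by sonication, per the labels' protocols. The submitters' processing notes name HISAT2, featureCounts, limma and genome mm10, without versions. The sources used here do not state annotation, strand setting or scaling method. The table deposited by the authors holds log2 CPM with 0.5 reads added. The 0.5 reads and the effective library sizes, with scaling factors of 0.500 to 1.76, were worked out from the values themselves, and whole reads were recovered for 100% of them (tolerance 1e-06).

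Gene positions come from RefSeq, in which all 92 genes matched by gene ID. Gene strands, exon lengths and exon overlaps come from GENCODE M21, in which all 92 symbols matched. Differences were fitted with limma 3.58.1 in R 4.3.3 (mean-variance trend, a term per organ and 1 for preservation, 3 residual degrees of freedom, prior 5.35), on genes with log2 CPM above 0 in at least 2 libraries, with Benjamini-Hochberg adjustment over 15819 genes, two-sided. The fit was checked on simulated data. Named were the called members with the largest positive differences per comparison (up to 16 for brain, 8 for others), those called between FFPE and frozen, the 5 highest per length in an organ, those whose highest organ changed, and those with 0 reads in 1 library and 20 or more in its partner. Of the members, 3 are counted but not reported here by name. Other members named were chosen after their values were seen. Members, classes and lists were chosen with earlier results of these data known. Floors cover counting error only, since PCR copies cannot be told from separate molecules. Alternatives were filters, scaling, pseudocount, variance model, voom on recovered reads and leaving out each library.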

Additional observations from a re-analysis of the deposited data

How the results depend on the processing

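Of 893 recomputed values for 56 named comparisons under 16 alternatives, 870 kept their direction and their side of the threshold, 23 kept the direction and lost the call, and 0 reversed. All 56 had been picked as called, and those between organs for the largest differences, so they could lose a call but not gain one. The 870 therefore says little about members not picked. The FFPE calls were the least stable. They numbered 2 as reported, 0 without a variance trend (18 higher and 0 lower at an unadjusted p under 0.05, limma), 0 on the scale log2(CPM + 5) (9 and 0), and 12 with voom on recovered reads. All genes called numbered 3.38%, 0%, 2.05% and 8.89% in that order. Leaving out any 1 of the 8 libraries gave 0 FFPE calls, with 12 to 23 higher and 0 to 1 lower at an unadjusted p under 0.05 (6.85% to 10.8% and 6.79% to 11.2% of all genes). That leaves an organ with 1 library, which is assumed to vary like the others. Over the same omissions the calls ran from 66 to 74 in brain, 30 to 51 in heart, 28 to 49 in kidney and 51 to 71 in liver, each against the other 3 organs. Without brain they ran from 34 to 42 in heart, 19 to 38 in kidney and 40 to 51 in liver. The lowest counts of heart and kidney came without the frozen library of that organ. Against the other 3 organs, the share of all genes called fell there too, as given above. For the other omissions that share is not given here, so these ranges describe the fit and not the members alone. Scaling moved the median log2 difference of all genes in brain from 0.05 to -0.20 with median centring and to -0.24 with quantile normalization, and in heart from -0.19 to -0.01 and 0.02. The FFPE comparison pairs the 2 libraries of each organ through the organ terms of the fit. No further block could be fitted, since each group holds 1 library and the labels give no replicate numbers. Depth limits members near 0: where an organ gave 0 reads in each library, scaling alone set FFPE minus frozen, at 0.49 (brain), -0.36 (heart), -0.37 (kidney) and -0.48 (liver). Causes were not tested.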
